A study of Mus musculus with 18 samples.

Results

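Ribosomal protein genes encode the structural proteins of the cytoplasmic ribosome, and their promoters were examined here as a set of housekeeping promoters in macrophages. Members were the protein-coding genes of the GENCODE M1 annotation of the mouse genome build mm9 whose names are Rpl or Rps followed by a digit, together with Rplp0, Rplp1, Rplp2 and Rpsa, and without names holding -ps and without the S6 kinases. The rule found 85 of 22367 protein-coding genes, and 79 of these had at least 1 peak of the promoter table within 1 kb of the transcription start site (TSS). These 79 genes held 144 of the 36670 promoter peaks, of which 72 contained the TSS and 72 flanked it. By name, 42 members belong to the large subunit, 31 to the small subunit, 3 to the stalk of the large subunit and 8 are paralogs of another member. The remaining gene, Rps19bp1, fits the name rule but encodes a binding partner of Rps19 and not a ribosomal protein.

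The assay was ATAC-seq, in which a transposase cuts open DNA and leaves sequencing adapters, so that reads accumulate at accessible sites. All 18 libraries came from bone marrow-derived macrophages (BMDMs) of 3 Il10-/- mice on the C57BL/6J background, which the study's methods describe as 12-week-old males, so the controls lacked IL-10 too. There were 6 groups of 3 libraries: unstimulated cells kept for 16 h in total, cells given 500 nM (+)-JQ1, cells given 10 ng/mL IL-10, cells given 50 ng/mL LPS for the last 4 h, and cells given (+)-JQ1 or IL-10 for 12 h before the same LPS stimulation (LPS + (+)-JQ1 and LPS + IL-10). The study's methods name a vehicle control among the 12 h treatments before LPS, and call the unstimulated control untreated. The labels call the LPS group untreated too, and no group was labelled as given vehicle without LPS. The effect of the vehicle was not tested. (+)-JQ1 is a small molecule that displaces BET bromodomain proteins from acetylated histones, IL-10 is an anti-inflammatory cytokine, and LPS, from the outer membrane of bacteria, is a standard inflammatory stimulus. Counts in peaks totalled 12020526 to 25908198 per library. The macrophage markers Cd68, Csf1r, Emr1, Fcgr1, Itgam, Lyz2 and Mertk all had a promoter peak, with mean levels of 7.08 to 39.3 CPM, counts in a peak scaled to the counts of the whole library, while none of the 4 T cell markers had one. A promoter peak was also present at 2 of 3 B cell, 2 of 4 neutrophil, 2 of 3 fibroblast and both dendritic cell markers, and the part of other cells in the results was not tested. Promoters of LPS-response genes moved with the labels: all 8 such peaks that held a TSS were higher after LPS, with a median log2 fold-change of 2.38.

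Cells make ribosomal proteins in equal numbers from genes scattered over the genome, and these genes are among the most heavily transcribed in a growing cell. Their mRNAs typically begin with a C and a short run of pyrimidines, the 5' terminal oligopyrimidine (TOP) start, through which translation is tuned to growth signals. Their promoters are mostly compact and often hold sites for factors of the ETS family. The members were therefore first described by sequence. A few windows from 250 bases before to 50 bases after the annotated TSS are printed because they hold the features counted next or belong to the members at the ends of the ranges of level and change. Capitals mark CCGGAAG (an ETS core) or its reverse complement, CTCGCGAGA, and a C followed by at least 6 pyrimidines that begins within 10 bases of the TSS. All windows are given 5' to 3' on the strand of the gene in mm9. Rpl37 (chr15:5066363-5066662, plus strand) had the highest level per kb, Rpl27a (chr7:116662411-116662710, plus strand) held both motifs, Rplp1 (chr9:61762296-61762595, minus strand) joined an ETS core to a TOP start, Rpl27 (chr11:101303362-101303661, plus strand) varied most between groups, and Rps10 (chr17:27773525-27773824, minus strand) had the lowest level per kb.
Rpl37: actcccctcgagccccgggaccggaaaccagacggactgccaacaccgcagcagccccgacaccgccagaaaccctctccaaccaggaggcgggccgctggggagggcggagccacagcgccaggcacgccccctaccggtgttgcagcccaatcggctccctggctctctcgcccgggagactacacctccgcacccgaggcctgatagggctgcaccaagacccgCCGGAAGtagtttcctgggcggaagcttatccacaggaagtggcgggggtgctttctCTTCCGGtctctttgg
Rpl27a: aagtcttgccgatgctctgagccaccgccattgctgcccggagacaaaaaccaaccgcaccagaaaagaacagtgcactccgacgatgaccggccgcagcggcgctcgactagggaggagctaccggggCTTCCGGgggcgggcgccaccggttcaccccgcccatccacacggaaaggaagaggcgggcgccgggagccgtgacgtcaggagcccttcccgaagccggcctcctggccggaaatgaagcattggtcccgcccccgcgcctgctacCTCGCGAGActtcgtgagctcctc
Rplp1: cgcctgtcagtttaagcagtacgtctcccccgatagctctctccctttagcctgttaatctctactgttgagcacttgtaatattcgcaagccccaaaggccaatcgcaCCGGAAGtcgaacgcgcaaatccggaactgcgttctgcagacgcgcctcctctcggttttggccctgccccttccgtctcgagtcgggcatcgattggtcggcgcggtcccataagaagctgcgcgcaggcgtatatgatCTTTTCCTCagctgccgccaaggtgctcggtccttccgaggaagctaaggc
Rpl27: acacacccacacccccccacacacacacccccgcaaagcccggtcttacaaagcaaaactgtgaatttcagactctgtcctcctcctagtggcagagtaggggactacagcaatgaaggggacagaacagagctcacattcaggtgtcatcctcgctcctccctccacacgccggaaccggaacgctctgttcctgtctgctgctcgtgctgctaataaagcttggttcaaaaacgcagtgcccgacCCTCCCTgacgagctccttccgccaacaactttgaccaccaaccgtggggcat
Rps10: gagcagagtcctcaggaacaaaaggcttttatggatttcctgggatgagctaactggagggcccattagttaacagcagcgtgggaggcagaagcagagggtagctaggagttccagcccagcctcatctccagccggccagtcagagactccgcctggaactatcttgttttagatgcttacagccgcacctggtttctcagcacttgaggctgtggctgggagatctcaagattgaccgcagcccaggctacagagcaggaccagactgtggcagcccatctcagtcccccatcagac

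The ETS core CCGGAAG lay on either strand in the windows of 24 of the 85 members (28.2%), against 10.8% of the windows of all 22367 protein-coding genes. These members included Rpsa, Rps6, Rplp1, Rplp2, Rpl11 and Rpl37, and 22 of the 27 sites began no further than 100 bases upstream of the TSS. The sequence CTCGCGAGA was found on either strand in 7 members (8.24%), among them Rpl17, Rpl26, Rpl27a, Rps28 and Rps6, against 0.863% of all windows. A TOP start at the annotated TSS was found in 18 members (21.2%) against 12.3% of all genes. Among them were Rpl27, Rpl32, Rplp1 and Rps16, while Rpl37 had none that began within 10 bases of its annotated TSS. The printed Rpl37 sequence does hold a C followed by a run of pyrimidines further downstream, outside the bases searched. The YY1 core AAGATGGC was in 6 members (7.06% against 3.3%) and the E-box CACGTG in 9 (10.6% against 7.78%). The interferon response sequence GAAANNGAA was in 11 members (12.9% against 8.92%). Shares nearer to those of all genes were found for GGGCGG, bound by SP and KLF factors, in 42 members (49.4% against 43.4%) and GCGCATGC, bound by NRF1, in 3 (3.53% against 3.3%). Lower shares than in all genes were found for CCAAT, bound by NF-Y, in 28 members (32.9% against 37.9%), for TATAAA in 10 (11.8% against 13.4%) and for the kappaB sequence GGGANTTTC in 0 of 85, against 1.13% of all genes. These are matches of letters on both strands, counted without a test, and they are not evidence of binding. Of all the genes compared, 14477 had a promoter peak within 1 kb, and shares among these alone were not counted.

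The peaks that held the TSS of a member were among the more accessible promoter peaks. Their median level over the 18 libraries was 35.8 CPM, compared with 22.8 CPM for the 11535 promoter peaks that held the TSS of any protein-coding gene and 4.78 CPM for all promoter peaks. Of the 72, 68 lay in the top 25% of promoter peaks by level and 35 in the top 10%. The flanking peaks were weak, with a median of 2.91 CPM. Base composition differed in the same way: the median GC content was 55.7% in peaks with the TSS and 44.9% in flanking peaks, and the ratio of observed to expected CpG was above 0.6 in 52 and 2 of 72 peaks. Among all peaks with a coding TSS, the ratio was above 0.6 in 54.6%, compared with 72.2% of those of the members. Median widths were 1141 bases with the TSS and 1410 in the flanks, against 1167 for all promoter peaks. Of the 72 peaks with a member TSS, 15 also lay within 1 kb of the TSS of another coding gene, for example Gcn1l1 at Rplp0, Mgat2 at Rpl36al and Rdh10 at Rpl7. Their counts cannot be divided between the neighbours.

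Levels of different members were compared per kb of peak, because widths ran from 673 to 11949 bases and 10 of the 72 peaks were 4 kb or wider. The main peak of each gene was the one nearest to its TSS. Rpl37, a protein of the large subunit, had the highest level at 52.1 CPM per kb (chr15:5065998-5066967), followed by Rpl27a at 50.5 and the paralog Rpl36al at 49.5 CPM per kb. The median of the 79 genes was 25.2 CPM per kb, and 50 genes were above 20. The lowest were Rps10 at 1.52, Rps9 at 1.59 and Rpl15 at 1.65 CPM per kb. The peaks of Rps9 and Rpl15 did not hold the TSS but lay 782 and 864 bases from it. The peak of Rps10 held only the TSS of the gene record, and a separate peak near the start of another of its transcripts had 21.6 ± 3.85 CPM (SD, n = 3) in unstimulated cells, compared with 1.12 ± 0.476 CPM at the first. Rps2 had 3.07 CPM over all libraries at the annotated start and 26.6 ± 4.2 CPM in unstimulated cells near another start, so the low values of both belong to the annotated start. Rps21, Rpl3, Rpl36 and Rpl38 also had only peaks that flanked the TSS.

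**Figure D1:**
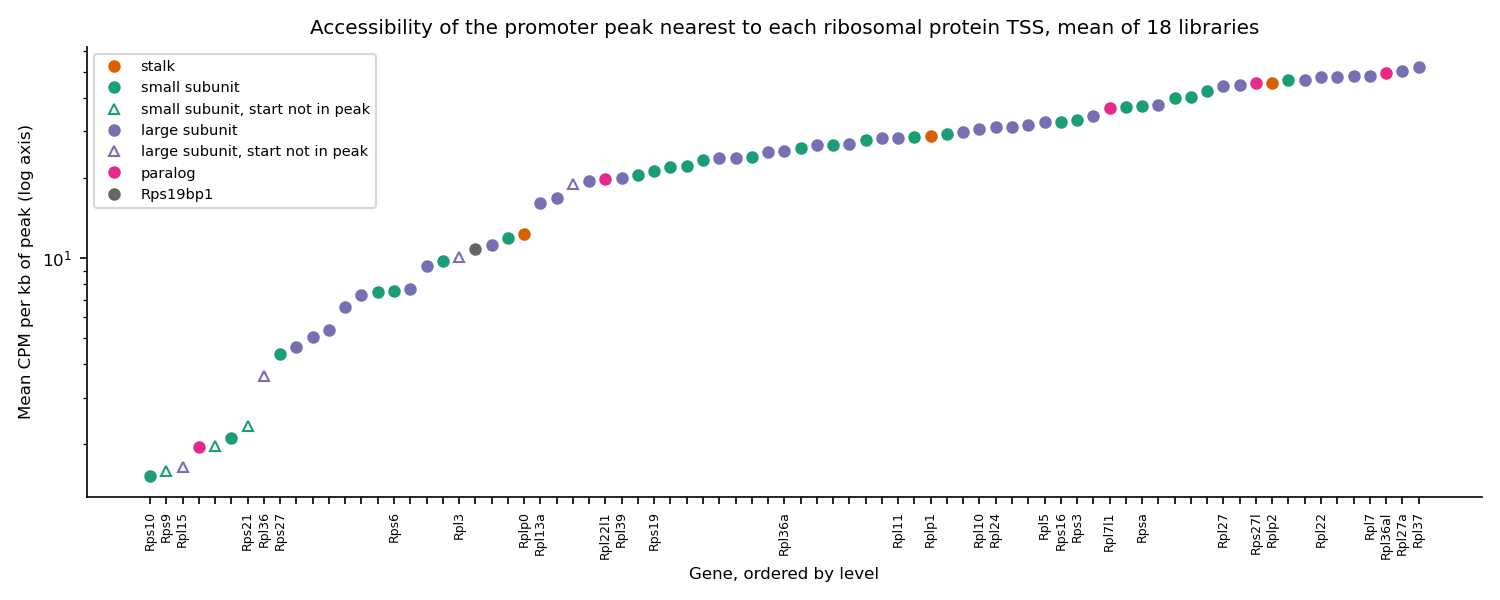
Mean accessibility over 18 libraries, in CPM per kb of peak on a log axis, of the main promoter peak of each of the 79 ribosomal protein genes with a peak, ordered by level, with names for those chosen by the naming rule. Filled circles are peaks that hold the TSS and open triangles are peaks that do not, and colours give the subunit. Levels ran from 1.52 for Rps10 to 52.1 for Rpl37, with members of both subunits spread over the range.

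Paralogs differed in whether they were accessible at all. Rpl10l, Rpl39l and Rpl3l, the relatives of Rpl10, Rpl39 and Rpl3 with expression restricted to particular tissues, had no promoter peak within 1 kb, while Rpl10 had 30.6 and Rpl39 20.1 CPM per kb. Rps27l (45.6 CPM per kb), Rpl36al (49.5) and Rpl7l1 (36.7) had peaks at levels seen in the core genes, and Rpl22l1 had 19.9 beside 47.9 CPM per kb at Rpl22. Per peak that pair was close, with 42.8 CPM in 2154 bases at Rpl22l1 and 43.7 CPM in 912 bases at Rpl22. Rpl36al was higher than Rpl36a, at 25.2 CPM per kb, and Rpl7l1 lower than Rpl7, at 48.3 CPM per kb, although the peaks of Rpl36al and Rpl7 were shared with other genes. The value of Rps27, at 4.36 CPM per kb, belonged to a window of 10147 bases and was not comparable with that of Rps27l. The relative of Rps4x named Rps4y2 stood at 1.95 CPM per kb and Rps4x at 9.78. The core genes Rpl18 and Rps29 also had no promoter peak within 1 kb of the TSS of the gene record. With the starts of all coding transcripts, Rpl18 gained 2 peaks.

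The share of each library's counts in the 144 member peaks was small and steady. It lay between 0.264% and 0.35% of all counts, and between 0.643% and 0.686% of the counts in promoter peaks. The first share was lowest in unstimulated cells, at 0.282% ± 0.0223 (SD, n = 3), followed by LPS + IL-10 (0.286% ± 0.00987), and highest with (+)-JQ1 alone (0.335% ± 0.013). It was 0.307% ± 0.00681 with LPS, 0.313% ± 0.00458 with IL-10 and 0.316% ± 0.00379 with LPS + (+)-JQ1. The share of promoter counts put the groups closer together, from 0.656% ± 0.0178 in unstimulated cells to 0.677% ± 0.00777 with (+)-JQ1. Promoter peaks as a whole held 43.0% ± 2.36 of all counts in unstimulated cells, 43.2% ± 0.721 with LPS + IL-10 and 49.5% ± 1.44 with (+)-JQ1, and by group mean the share in promoters and the share in member peaks put the 6 groups in the same order.

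The unstimulated libraries differed most among themselves. The median log2 CPM of the 72 peaks with the TSS was 4.52, 4.78 and 5.14 in unstimulated replicates 1, 2 and 3. The other 15 libraries lay between 4.86 and 5.60, and unstimulated replicate 3 lay within that range while replicates 1 and 2 lay below it. The group means were 4.81 ± 0.31 in unstimulated cells, 5.46 ± 0.13 with (+)-JQ1, 5.24 ± 0.06 with IL-10, 5.18 ± 0.09 with LPS, 5.27 ± 0.08 with LPS + (+)-JQ1 and 4.99 ± 0.13 with LPS + IL-10 (SD, n = 3). The median log2 CPM of the 72 flanking peaks stayed at or below 1.77 in all libraries. Single flanking peaks lay higher, such as 1 at Rps28 with a mean of 60.9 CPM in unstimulated cells. Unstimulated replicates 1 and 2 also had the largest TMM factors, at 1.24 and 1.15 against 0.896 to 1.05 in the rest, and replicate 1 had the lowest share of counts in promoters (40.8%). In 50 genes with both kinds of peak, the peak with the TSS exceeded the strongest flanking peak by a median of 2.72, 3.10 and 3.60 on the log2 scale in the 3 unstimulated libraries, a contrast within a library that no library scaling factor changes. It was 3.00 to 4.14 in the other 15 libraries, and the part of this library difference in the results below was not tested.

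Set against other promoters of the same library, the groups lay closer together. The median of the members' TSS peaks exceeded the median of all 11535 coding TSS peaks by 0.63 ± 0.06 on the log2 scale in unstimulated cells, 0.73 ± 0.04 with (+)-JQ1, 0.68 ± 0.02 with IL-10, 0.65 ± 0.06 with LPS, 0.67 ± 0.03 with LPS + (+)-JQ1 and 0.59 ± 0.06 with LPS + IL-10 (SD, n = 3). Single libraries lay between 0.53 and 0.76. The comparison with coding TSS peaks was added after the values had been seen. Within groups, the median SD of log2 CPM of the members' TSS peaks was 0.302 in unstimulated cells and 0.061 with IL-10, against 0.286 and 0.0943 for all coding TSS peaks.

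**Figure D2:**
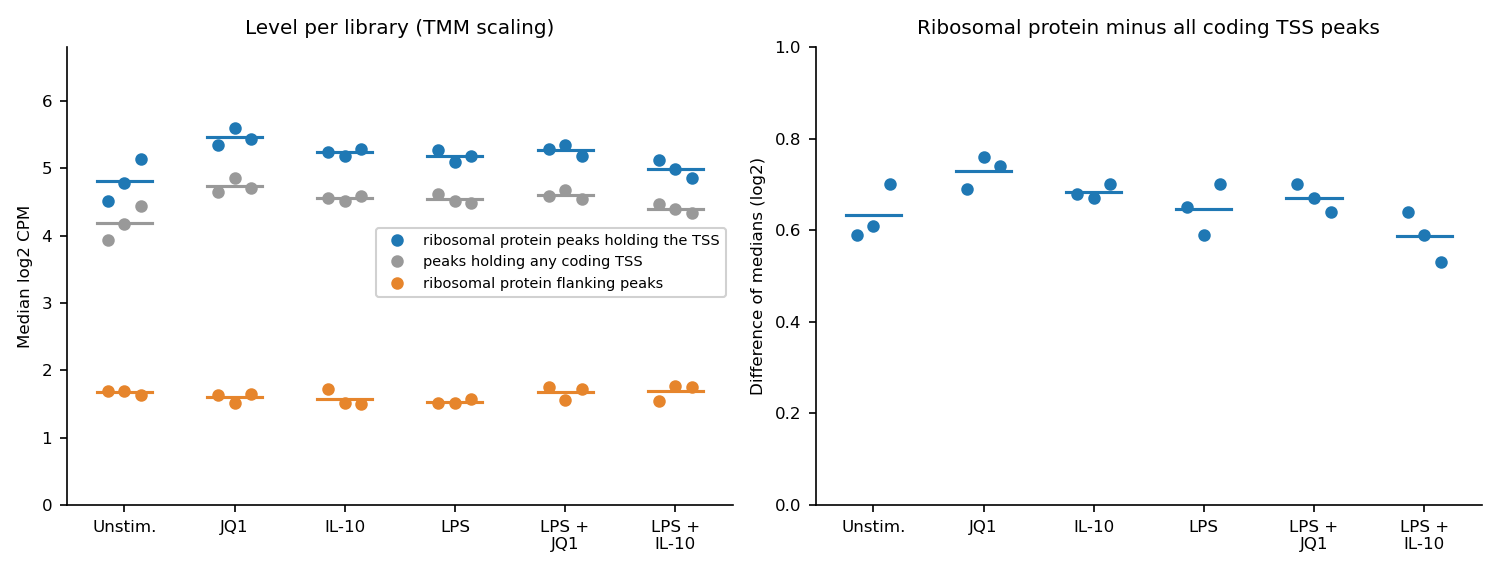
Left, median log2 CPM per library of the ribosomal protein peaks that hold the TSS, of all peaks that hold a coding TSS and of the ribosomal protein flanking peaks; right, the first minus the second. Points are the 3 libraries of each group and lines their mean. Peaks with the TSS rose and fell together with those of all coding genes, from 4.52 to 5.60, while the difference on the right stayed between 0.53 and 0.76.

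LPS stimulation was compared with unstimulated cells to ask whether the inflammatory response reached these promoters. With TMM scaling, 46 of the 72 peaks with the TSS were higher at an FDR under 0.05 by the edgeR quasi-likelihood test and 0 were lower, with a median log2 fold-change of 0.39. Among the 36666 promoter peaks tested, 24.3% were higher and 7.62% lower. Promoter peaks with a coding TSS are the closer match, and of these 43.8% were higher and 3.95% lower with a median of 0.32, beside 63.9% higher among the members. Over all 144 member peaks, 13 were DARs (FDR under 0.05 and |log2 fold-change| above 0.5) with higher and 3 with lower accessibility. The background of promoter DARs was 14.3% higher and 6.71% lower. Among TSS peaks alone, 12 of 72 members' and 2323 of 11535 coding ones were DARs with higher accessibility, a smaller share in the members. DARs with lower accessibility numbered 0 and 366. Of the flanking peaks, 4 were higher and 4 lower at FDR under 0.05, with a median of -0.04. The largest rises were at Rpl24, Rpl27 and Rpl22. The peak at Rpl24 had 13.2, 19.0 and 24.9 CPM in unstimulated and 35.7, 33.1 and 35.5 CPM in LPS-stimulated cells. The groups did not overlap, and its log2 fold-change was 0.86 ± 0.15 (SE, FDR = 1.4e-06 by edgeR). Rpl27 rose by 0.64 ± 0.14 (FDR = 0.000213) and Rpl22 by 0.61 ± 0.14 (FDR = 0.000349). The 1 main peak that fell belonged to Rps21, a flanking peak with a log2 fold-change of -0.38 ± 0.14 (FDR = 0.0396).

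The stalk proteins recruit the translation GTPases to the ribosome, and all 3 of their genes rose with LPS at similar size. The peak of Rplp0, a window of 6318 bases, had 53.5, 57.4 and 69.6 CPM in unstimulated and 92.4, 82.3 and 79.6 CPM in LPS-stimulated cells, without overlap between the groups. Its log2 fold-change was 0.49 ± 0.13 (edgeR, FDR = 0.00279), beside 0.40 ± 0.14 for Rplp1 (FDR = 0.0219) and 0.50 ± 0.14 for Rplp2 (FDR = 0.00417). Rps6, the ribosomal substrate of the S6 kinases, had 45.2, 49.3 and 56.4 CPM in unstimulated and 56.0, 51.2 and 49.4 CPM in LPS-stimulated cells. These ranges overlapped, and the log2 fold-change was 0.05 ± 0.13 (FDR = 0.81). Rpl5 and Rpl11, which bind Mdm2 when ribosome assembly fails, had log2 fold-changes of 0.40 ± 0.14 (FDR = 0.0222) and 0.57 ± 0.14 (FDR = 0.000983). Rpl13a, whose protein is part of a complex that silences inflammatory mRNAs, had 0.48 ± 0.14 (FDR = 0.00523). Rps3, which also binds NF-kappaB p65, had 0.38 ± 0.14 (FDR = 0.0325), and Rps19, a gene of Diamond-Blackfan anaemia, had 0.48 ± 0.14 (FDR = 0.00449). Rpsa, the laminin receptor precursor, had 0.42 ± 0.14 (FDR = 0.0135).

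(+)-JQ1 alone was compared with the same unstimulated libraries to ask whether BET inhibition lowered accessibility at housekeeping promoters. Of the 72 peaks with the TSS, 64 were higher at FDR under 0.05 and 0 lower, with a median log2 fold-change of 0.58, which is a fold of 1.5. The background was 26.4% of promoter peaks higher and 2.48% lower. Of all coding TSS peaks 60.2% were higher, with a median of 0.54, beside 88.9% of the members' TSS peaks. Among TSS peaks alone, 47 of 72 members' and 6222 of 11535 coding ones were DARs with higher accessibility, a larger share in the members. Those with lower accessibility numbered 0 and 92. Over all 144 peaks, 48 were DARs with higher and 2 with lower accessibility, against 22.9% and 2.15% of promoter peaks. The 2 lower DARs were flanking peaks of Rpl21 (log2 fold-change -0.84 ± 0.27, FDR = 0.0231) and Rps12 (-0.64 ± 0.14, FDR = 0.000498). Rpl27 had 18.6, 23.6 and 26.5 CPM in unstimulated and 42.9, 54.4 and 46.2 CPM in (+)-JQ1-treated cells. Every treated library was above every control, and the rise of 1.06 ± 0.14 (edgeR, FDR = 4.32e-08) was the largest among main peaks. Rpl22 rose by 0.88 ± 0.14 (FDR = 1.09e-06) and Rplp2 by 0.88 ± 0.14 (FDR = 9.89e-07). The other stalk genes rose by 0.65 ± 0.14 (Rplp1, FDR = 0.000214) and 0.45 ± 0.13 (Rplp0, FDR = 0.0105).

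Rps6 had 55.9, 67.9 and 61.8 CPM with (+)-JQ1 and a log2 fold-change of 0.30 ± 0.13 (FDR = 0.133), and Rpl36, a window of 7488 bases beside the TSS, had -0.09 ± 0.13 (FDR = 0.748). The width of the window moved with the size of the change. In the 56 TSS peaks under 2 kb the median log2 fold-change with (+)-JQ1 was 0.62, in the 10 peaks of 4 kb or more it was 0.39. Among all coding TSS peaks the medians were 0.62 under 2 kb and 0.03 at 4 kb or more, the first the same as that of the narrow member peaks. Under LPS the members' medians were 0.40 and 0.33 for the same widths, and the others' 0.35 and 0.18.

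IL-10 alone was compared with the same unstimulated libraries, and its difference from (+)-JQ1 was not tested. Of the 72 TSS peaks, 37 were higher at FDR under 0.05 and 0 lower, with a median log2 fold-change of 0.39, against 18.5% of promoter peaks higher and 2.09% lower. Of all coding TSS peaks 40.2% were higher, with a median of 0.35, beside 51.4% of the members' TSS peaks. Over all 144 peaks 10 were DARs, all higher, against 8.72% of promoter peaks higher and 1.97% lower. Among TSS peaks alone, 10 of 72 members' and 1981 of 11535 coding ones were DARs with higher accessibility, a smaller share in the members. Those with lower accessibility numbered 0 and 91. Rpl27 had 36.1, 37.9 and 37.3 CPM with IL-10, all above the unstimulated libraries, and rose by 0.69 ± 0.14 (edgeR, FDR = 0.000335). Rpl22 rose by 0.61 ± 0.14 (FDR = 0.00162) and the paralog Rps27l by 0.59 ± 0.14 (FDR = 0.00306). Rplp0 rose by 0.39 ± 0.13 (FDR = 0.0399), while Rplp1 had 0.35 ± 0.14 (FDR = 0.0853) and Rpsa 0.34 ± 0.14 (FDR = 0.0845).

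The 3 comparisons share the unstimulated libraries, and the calls in them depended on these libraries and on the scaling. The fits without single unstimulated libraries were chosen after seeing the data. Without unstimulated replicate 1, 11 member peaks were DARs with LPS (7 higher, 4 lower), 31 with (+)-JQ1 and 1 with IL-10. Without unstimulated replicates 1 and 2, the numbers were 5 (2 higher, 3 lower), 7 and 0. Leaving out replicate 3 in all groups gave 59, 70 and 50, and leaving out replicate 2 gave 9, 7 and 0. Scaling by total counts gave 1 higher and 11 lower DARs with LPS, 8 and 7 with (+)-JQ1, and 0 and 3 with IL-10, since it moved the median of all peaks to -0.26, -0.37 and -0.26. Offsets fitted by loess against abundance set the average change of all peaks of a level near 0. They gave 1 higher and 4 lower with LPS, 0 and 5 with (+)-JQ1 and 0 and 1 with IL-10. With lane as a term the numbers were 16, 50 and 10, as without it. With the loess offsets the median log2 fold-change of the TSS peaks was -0.01, 0.03 and -0.02. Under every scaling run, the members' median was within 0.07 of that of all coding TSS peaks in these 3 comparisons. A library scaling factor moves both medians alike, so the choice of factor could not change their difference.

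**Figure D3:**
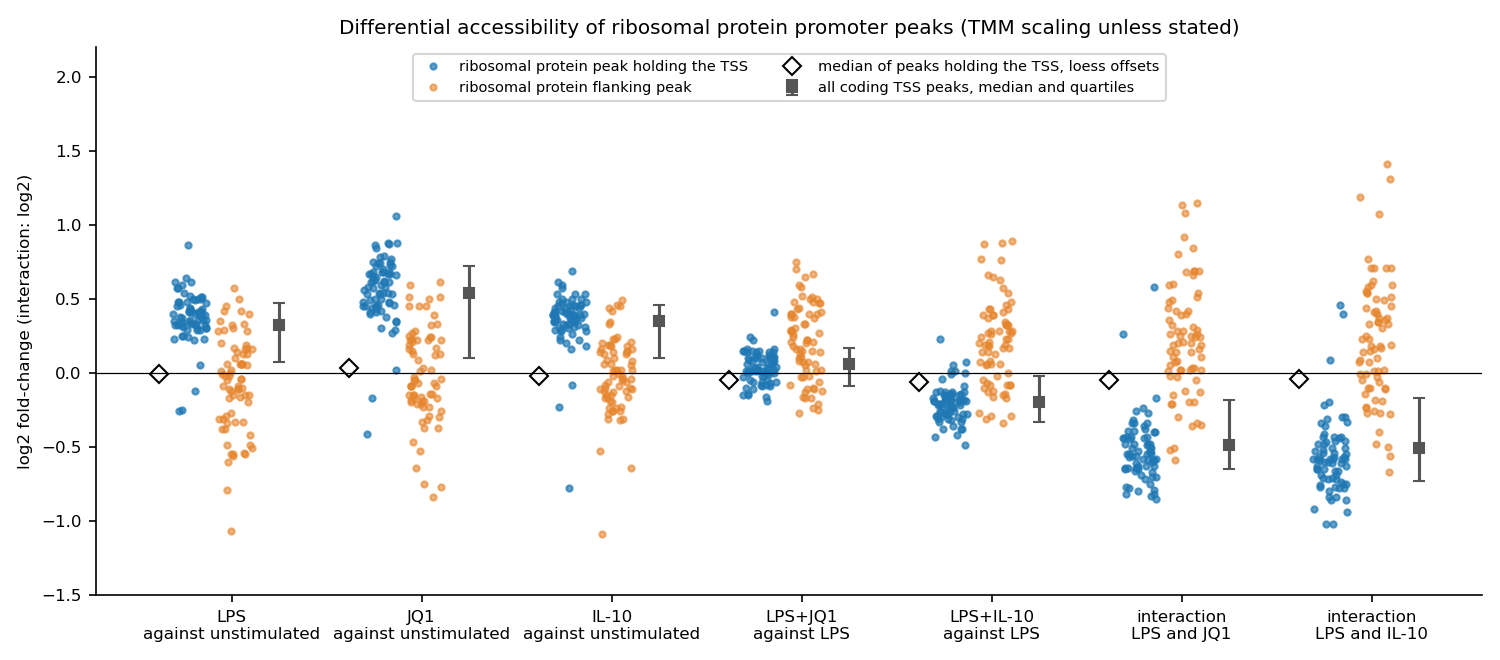
Log2 fold-changes (for interactions, log2 differences of changes) of the ribosomal protein promoter peaks in the 7 comparisons. Blue points are the 72 peaks that hold the TSS, orange points the 72 flanking peaks, squares with bars the median and quartiles of all 11535 coding TSS peaks, and open diamonds the median of the blue peaks under loess offsets. Blue points centred on 0.39, 0.58 and 0.39 in the first 3 comparisons, close to the squares. The diamonds lay near 0 throughout, where loess offsets set the average of all peaks of a level.

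In LPS-stimulated cells, (+)-JQ1 left these promoters without a detected change. Of the 72 peaks with the TSS, 0 passed an FDR of 0.05 in either direction by edgeR, 0 had an unadjusted p under 0.05 and 0 passed by DESeq2, and the median log2 fold-change was 0.03. Among promoter peaks 2.32% were higher and 3.65% lower at that FDR, and DARs made up 1.72% and 3.22%. At an unadjusted p under 0.05 by edgeR, 8.69% of promoter peaks were higher and 8.66% lower. Of all coding TSS peaks 2.42% were higher and 3.34% lower at FDR under 0.05, with a median of 0.06. For comparison, the LPS-response list fell by a median of 0.42 on the log2 scale over its 8 TSS peaks, 4 of them at FDR under 0.05. Rplp0 had 85.3, 86.9 and 78.6 CPM with LPS + (+)-JQ1 against 92.4, 82.3 and 79.6 CPM with LPS, and its log2 fold-change was -0.02 ± 0.13 (FDR = 0.963). Rpl27 had the values 40.9, 47.5 and 38 against 41.7, 33.7 and 31.6 CPM, with overlap and a log2 fold-change of 0.24 ± 0.14 (FDR = 0.376). Standard errors of the log2 fold-change in this comparison ran from 0.13 to 0.36 over the 72 peaks, with a median of 0.14 and the largest at Rps10, whose peak had about 1 CPM. Of the flanking peaks, 1 passed the FDR, at Rps16 (0.48 ± 0.14, FDR = 0.0267).

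With IL-10 before LPS, calls at FDR under 0.05 among the members' TSS peaks were no more frequent than among other promoters. Of the 72 TSS peaks 3 were lower at FDR under 0.05 and 0 higher, with a median log2 fold-change of -0.20, the same as the -0.20 of all coding TSS peaks. The background was 3.7% of promoter peaks higher and 6.8% lower, and 11.2% of coding TSS peaks were lower beside 4.17% of the members'. DESeq2 called 2 of the 72 lower. Without adjustment, 20 of the 72 (27.8%) were lower at p under 0.05 by edgeR, against 17.3% of promoter peaks. In 38 (52.8%) every LPS + IL-10 library lay below every LPS library, against 21.4% of promoter peaks. For these 2 measures the share of coding TSS peaks was not counted. The 3 were Rpl36a, which fell by 0.49 (SE 0.14, FDR = 0.0137), Rpl39, by 0.43 (SE 0.14, FDR = 0.0323), and Rpl10, by 0.42 (SE 0.14, FDR = 0.0395), which all lie on chromosome X. The other X-linked member with a TSS peak, Rps4x, had -0.25 ± 0.14 (edgeR, FDR = 0.291), and the location was seen after the values and not tested. Rpl36a had 20.4, 19.2 and 13.7 CPM with LPS + IL-10 against 27.0, 23.7 and 23.9 CPM with LPS, without overlap. None of the 3 reached the size of a DAR. The 4 member DARs were all higher and all flanking peaks, at Rpl12 (0.89 ± 0.21, FDR = 0.00117), Rps9 (0.77 ± 0.18, FDR = 0.00123), Rplp1 (0.76 ± 0.23, FDR = 0.017) and Rps16 (0.65 ± 0.14, FDR = 0.000684), against 3.04% of promoter peaks higher and 3.94% lower. At Rps16 the flanking peak rose while the peak with the TSS had -0.22 ± 0.13 (FDR = 0.33).

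The interaction terms asked whether a pretreatment acted differently with and without LPS. For (+)-JQ1, 22 TSS peaks had a lower change with LPS than without at FDR under 0.05 and 0 a higher one, with a median of -0.55, against 11.2% of promoter peaks lower and 0.614% higher. Among coding TSS peaks 28.2% were lower, with a median of -0.49, beside 30.6% of the members'. For IL-10, 41 were lower and 0 higher, with a median of -0.58, against 16.9% of promoter peaks lower and 1.4% higher. Among coding TSS peaks 40.5% were lower, with a median of -0.51, beside 56.9% of the members'. Rps16 had the strongest term for (+)-JQ1, -0.85 ± 0.19 (edgeR, FDR = 0.00547). Its peak had 20.7, 20.4 and 27.5 CPM in unstimulated cells, 40.7, 47.1 and 38.1 with (+)-JQ1, 34.5, 31.4 and 31.8 in LPS-stimulated cells, and 33.8, 33.7 and 32.0 in cells given LPS + (+)-JQ1. Of these 4 groups, every unstimulated library lay below and every (+)-JQ1 library above the LPS-stimulated ones. Rpl22 (-0.83 ± 0.19, FDR = 0.00826) and Rps19 (-0.82 ± 0.19, FDR = 0.00706) followed. For IL-10 the strongest terms were those of Rpl27 (-1.02 ± 0.20, FDR = 0.00018), Rpl36a (-1.02 ± 0.20, FDR = 0.000304) and Rpl22 (-0.94 ± 0.20, FDR = 0.000542). Without unstimulated replicate 1 the called member peaks were 10 and 24 in place of 23 and 42, and without unstimulated replicates 1 and 2 they were 0 and 4. Loess offsets left 4 and 6, of which 4 and 5 were higher, and total counts gave 6 higher and 7 lower for (+)-JQ1 and 10 higher and 14 lower for IL-10.

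**Figure D4:**
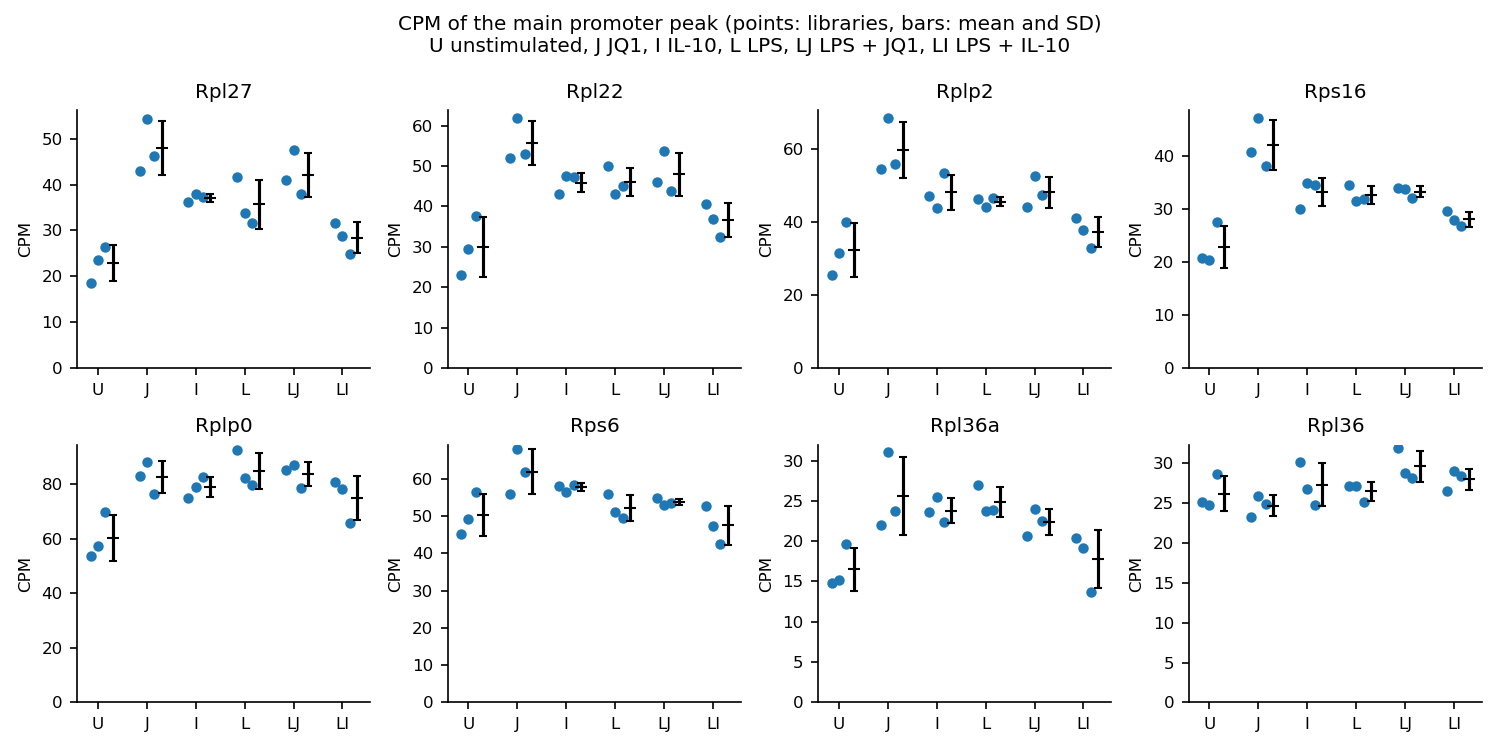
CPM of the main promoter peak of 8 ribosomal protein genes in the 18 libraries, with points for libraries and bars for the group mean and SD (n = 3). Rpl27, Rpl22, Rplp2 and Rps16 were lowest in unstimulated and highest in (+)-JQ1-treated cells. Rps6 and Rpl36 overlapped between unstimulated and (+)-JQ1-treated cells, and Rpl36a fell from 24.9 CPM with LPS to 17.8 CPM with LPS + IL-10.

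Members differed from each other in how far they moved. The range of the 6 group means of log2 CPM had a median of 0.61 over the 79 main peaks. It was largest for Rpl27 (1.07) and smallest for Rpl36 (0.26), whose peak had 24.8 to 28.7 CPM in unstimulated and 28.2 to 31.9 CPM in LPS + (+)-JQ1-treated cells. By subunit, the medians of the TSS peaks with (+)-JQ1 were 0.61 for 26 small subunit genes, 0.54 for 37 large subunit genes, 0.65 for the 3 stalk genes and 0.58 for 5 paralogs. With LPS they were 0.39, 0.36, 0.49 and 0.33. The sequence features divided them little: with (+)-JQ1 the median was 0.67 in the 19 members with a TSS peak and an ETS core and 0.54 in the 53 without, and with LPS it was 0.39 in both. Members with a TOP start at the annotated TSS had 0.66 with (+)-JQ1 (n = 16) and those without 0.54 (n = 56). These groups were described without a test.

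Other genes of the translation machinery gave similar values. Of 64 TSS peaks of mitochondrial ribosomal proteins, which serve the separate ribosome of that organelle, 43 were higher and 1 lower with LPS (median 0.40), and 58 were higher with (+)-JQ1 (median 0.70). Of 47 peaks of translation factors, 36 were higher with LPS (median 0.45) and 45 with (+)-JQ1 (median 0.69), and none was lower in either comparison. Of 24 peaks of ribosome biogenesis genes, 20 and 23 were higher (medians 0.45 and 0.66). The list of other TOP and ribosome genes, with Tpt1 and Eef1a1 among them, had 9 TSS peaks, of which 6 were higher with LPS and 9 with (+)-JQ1 (medians 0.40 and 0.65). LPS + (+)-JQ1 against LPS gave 3 higher peaks for mitochondrial ribosomal proteins, 1 for translation factors and 0 for biogenesis and for the other TOP and ribosome genes. With IL-10 before LPS, 5 mitochondrial ribosomal peaks were lower and 1 higher, and 7 translation factor and 5 biogenesis peaks were lower. These are 7.81%, 14.9% and 20.8% of the lists, beside 11.2% of all coding TSS peaks.

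Distal peaks around the members were counted to see whether regions near these genes responded. A member had a median of 7 distal peaks within 25 kb of its TSS, as did the 14477 coding genes with a promoter peak, and 2 members had none. Of the 613 distal peaks around members, 9.14% were DARs with higher and 6.85% with lower accessibility after LPS, against 11.1% and 11% of all 157564 distal peaks tested. With (+)-JQ1 the shares were 2.28% and 1.96% against 4.34% and 3.39%, and with IL-10 2.94% and 3.59% against 4.33% and 3.85%. For LPS + (+)-JQ1 against LPS, 1.14% were higher and 1.63% lower, against 1.74% and 3.55%. With LPS + IL-10 they were 2.12% and 3.1%, against 4.54% and 4.65%. These shares were not tested against each other, and many of these peaks lie nearer to other genes.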

How the data were processed

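Chromatin accessibility of 18 ATAC-seq libraries was analysed from the counts of reads per peak that the authors deposited as raw counts without normalization. Per the methods, the authors processed read pairs with PEPATAC, aligned them to mm9 with bowtie2, kept uniquely mapped reads, called peaks in each library with MACS2 and classed peaks near a TSS as promoter with ChIPSeeker. The tool that counted reads in the 194284 peaks is not given in the sources used here. Ribosomal protein genes have many near-identical processed copies, whose reads may not map uniquely, and the effect on the counts was not tested. The union table held 6 columns that match no sample and were not used. Peak coordinates are printed as deposited, since the files do not say whether they start from 0 or 1.

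Members were matched to GENCODE M1 (mm9), and all 21 chromosomes with peaks fitted the reference. Counts were tested with the edgeR 4.0.16 quasi-likelihood test (glmQLFit, glmQLFTest) in R 4.3.3, after filterByExpr and TMM scaling, with all 6 groups in 1 fit. The Benjamini-Hochberg adjustment covered all tested peaks. CPM values are TMM-scaled, and log2 CPM used a prior count of 2. Called peaks (DARs) passed both limits, FDR below 0.05 and |log2 fold-change| exceeding 0.5, and counts at FDR under 0.05 of any size are given beside it. On simulated counts for LPS against unstimulated cells, 183 of 200 peaks with a simulated log2 change of 1.5 were recovered and 10 unchanged peaks of 193774 tested were called. That change was larger than any of the members' TSS peaks, where the largest was 1.06 with (+)-JQ1. The simulated libraries shared 1 spread and differed only in depth. Recovery of smaller changes, and calls under the differences between the unstimulated libraries, were not tested.

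Some members are counted in the totals but not reported here by name. Named genes were the 3 highest and 3 lowest main peaks per kb, the 3 largest rises and falls at FDR under 0.05 in each comparison, members without a peak, those with the largest and smallest range of group means, and members listed for their roles. The members and gene lists were chosen with earlier results of these data known. Same-numbered replicates were taken as 1 mouse, since the labels number them and the study cultured cells of 3 mice. Deviations from the group means had a mean correlation of 0.00573 over 45 same-numbered pairs and -0.00286 over 90 other pairs. Lane 5 held replicate 1 and lane 6 replicate 3, whereas replicate 2 ran in lane 5 for groups without LPS and in lane 6 for groups with it. Alternatives covered DESeq2 1.42.0, scaling, filters, the replicate number as a block, lane, groups fitted, thresholds, membership and each replicate left out. Fits without unstimulated replicates 1 and 2 were added after seeing the data. Depth of 12020526 to 25908198 counts per library limits low peaks, and p-values cover the spread between libraries of 3 mice.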

Additional observations from a re-analysis of the deposited data

Results flagged for a closer look

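Both interactions with LPS were called in member peaks by the edgeR quasi-likelihood test of the interaction itself, as they were in other promoters. Among TSS peaks 30.6% of the members' and 28.2% of all coding ones were lower for (+)-JQ1, and 56.9% and 40.5% for IL-10. With loess offsets 4 and 6 member peaks were called, 4 and 5 of them higher. For (+)-JQ1, 23 of the 144 member peaks were called, 22 of them with a lower log2 fold-change in LPS-stimulated than in unstimulated cells. The strongest negative terms were -0.85 at Rps16, -0.83 at Rpl22 and -0.82 at Rps19. For IL-10, 42 member peaks were called, 41 of them in this direction, with -1.02 at Rpl27, -1.02 at Rpl36a and -0.94 at Rpl22. The median log2 fold-change of the TSS peaks with IL-10 was 0.39 without LPS and -0.20 with it, a change of sign. Unstimulated replicates 1 and 2, which had the lowest members' levels and the largest TMM factors, enter both terms, and the part of these libraries in the result was not tested beyond the fits without them.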

How the results depend on the processing

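Called member peaks numbered 16 for LPS, 50 for (+)-JQ1, 10 for IL-10, 0 for LPS + (+)-JQ1 and 4 for LPS + IL-10 (each against LPS), 23 for the (+)-JQ1 interaction and 42 for the IL-10 interaction. The cause of the changes below was not tested. Total counts gave 15 for (+)-JQ1, 3 for IL-10, and 13 and 24 for the interactions. Loess offsets gave 5, 5 and 1 for LPS, (+)-JQ1 and IL-10, and 4 and 6 for the interactions. Scaling on promoter peaks alone gave 18 for (+)-JQ1 and 5 for IL-10, and a minimum of 10 counts gave 3 for IL-10. For the (+)-JQ1 interaction, DESeq2 gave 48 and a fit of only the groups compared 10. An FDR of 0.01 left 5 and 20 for the interactions, and peaks with the TSS alone left 0 for LPS + IL-10. Without unstimulated replicate 1, (+)-JQ1 gave 31, IL-10 1 and the interactions 10 and 24. Without unstimulated replicates 1 and 2, LPS gave 5, (+)-JQ1 7, IL-10 0 and the interactions 0 and 4. With 1 mouse left out of all groups, the numbers ran from 4 (without replicate 1) to 59 (without replicate 3) for LPS, from 7 (without replicate 2) to 70 (without replicate 3) for (+)-JQ1, from 0 (without replicate 2) to 50 (without replicate 3) for IL-10, from 0 to 1 for LPS + (+)-JQ1, from 3 to 5 for LPS + IL-10, from 0 (without replicate 1 or 2) to 52 (without replicate 3) for the (+)-JQ1 interaction and from 1 (without replicate 2) to 51 (without replicate 3) for the IL-10 interaction. With the replicate number as a block, the numbers were 17, 50, 10, 0, 4, 17 and 35, so the block moved none by over 1.5 times.

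The log2 ratio of the share of counts in member peaks against unstimulated cells was 0.25 for (+)-JQ1, 0.15 for IL-10, 0.13 for LPS, 0.17 for LPS + (+)-JQ1 and 0.02 for LPS + IL-10. As a share of promoter counts the first 4 were 0.05, 0.04, 0.03 and 0.05, and as differences in median log2 CPM of the TSS peaks the values were 0.65, 0.42, 0.37, 0.46 and 0.18. For LPS + IL-10 it was -0.04 to 0.12 with 1 replicate left out, and 0.00 without replicate 2.

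Loess offsets turned the sign of some named members that passed the FDR threshold in at least 1 of the 2 fits. With LPS these were Rpl27a (0.00), Rpl36 (-0.34), Rplp0 (-0.04), Rpsa (-0.01), Rps6 (-0.42), Rps3 (-0.02), Rps19 (-0.01), Rpl10 (-0.04) and Rps27 (-0.10). With (+)-JQ1 they were Rpl36al (-0.15), Rplp0 (-0.39), Rpsa (-0.05), Rps6 (-0.44), Rpl5 (-0.05), Rps27 (-0.41), Rpl7 (-0.23) and Rpl7l1 (-0.12). With IL-10 they were Rpl36al (-0.09), Rpl37 (-0.01), Rpl36 (-0.33), Rplp0 (-0.16), Rps6 (-0.30), Rps3 (-0.03), Rps19 (-0.03), Rpl22l1 (-0.01) and Rpl7 (-0.05). The (+)-JQ1 interaction turned for Rpl36al (0.00) and Rps6 (0.39), and the IL-10 interaction for Rpl36al (0.04), Rplp0 (0.28), Rps6 (0.38) and Rps3 (0.00). Without unstimulated replicates 1 and 2, LPS gave -0.03 for Rpl10 and -0.03 for Rps27l. Over all alternatives, 2504 values of named members stayed on the same side of the FDR threshold. Where neither fit passed the threshold, a change of sign was not counted. With the sign kept, 456 lost the call and 68 gained it. A further 34 changed sign where at least 1 of the 2 fits passed the threshold.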
